A study of Mus musculus with 12 samples.

Results

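The sequences described here are cDNA clones of the RIKEN mouse collection whose clone number opens with '1700', '4921', '4930', '4931', '4932' or '4933', the number blocks used for testis libraries. On the array they are probes outside the controls whose name carries such a clone number, with 1 listed clone left out. This gave 1130 clones of the 97836 distinct sequences on the array, beside 14544 other RIKEN clones. The choice rested on names alone and used no measured value. The largest block, '4930', had 550 clones, followed by '1700' with 267, '4933' with 125, '4932' with 86, '4921' with 62 and '4931' with 40. The meaning of the number blocks is background knowledge of the collection and is not stated in the files.

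The testis is known for transcribing an unusually broad part of the genome, which includes many long noncoding RNAs (lncRNAs) and transcripts of meiosis and sperm formation. A clone isolated from testis can also be transcribed in other tissues, and a probe for it measures that sequence wherever the RNA comes from. Hypoxia-inducible factor 1 (HIF-1) is the transcription factor that adapts cells to low oxygen. Its alpha subunit, encoded by Hif1a, is degraded when oxygen is plentiful, and cobalt chloride (CoCl2) blocks that degradation. The HIF complexes bind a short core of the form ACGTG or GCGTG in hypoxia response elements.

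The RNA was that of cultured vascular smooth muscle cells (VSMCs) from male mice, grown in the same smooth muscle medium in all groups and measured on 12 single-colour Agilent arrays. Cells of the genotype Hif1afl/fl, called floxed here, or of Hif1a△SMC, a disruption restricted to VSMCs and called deleted here, received 150 µM CoCl2 or the same volume of phosphate-buffered saline (PBS) for 24 h. The 4 groups, floxed with PBS, floxed with CoCl2, deleted with PBS and deleted with CoCl2, had 3 arrays each. The labels give no Cre driver, strain or age. They also leave unsaid whether a group's arrays stem from different mice or dishes. The p-values therefore cover the spread between these samples alone, which may be technical. No named probe for Hif1a was found, so the disruption was not checked here. Levels below are log2 processed signal minus the 75th percentile of the same array, called scaled signal. Because hybridisation strength differs between probes, levels of different clones are not compared as abundances. Fewer cells expressing a transcript and less RNA per cell cannot be told apart in such samples.

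For 390 clones the RIKEN name matched exactly 1 RefSeq gene (383 distinct symbols), 4 clones matched 2 genes and 736 matched none. Of the 390, 268 lay at lncRNA loci, 109 at protein-coding loci and 13 at other loci, and 118 carried an established symbol. A clone is named below as the clone at a locus, since it can report another transcript than the coding one. The Diablo locus overlaps B3gnt4, the Hspa12a locus Eno4 and the St8sia3os locus St8sia3, so their clones may report either gene. RefSeq promoter windows of 300 bases, from 250 before to 50 after the annotated start (assembly GRCm38.p6), were at hand for 298 of the 383 symbols. Windows at the loci of 4 clones are printed because these clones carry the main patterns: Diablo and Psmd11 of the rises with CoCl2, and Bnip5 and Abracl of the falls in deleted cells. Capitals mark ACGTG or GCGTG on either strand, so that CACGT and CACGC are the same cores on the other strand. The Diablo window lies at chr5:123524115-123524414 (minus strand), that of Psmd11 at chr11:80428365-80428664 (plus), that of Bnip5 at chr17:28915275-28915574 (minus) and the first of 2 for Abracl at chr10:18023203-18023502 (minus).
Diablo: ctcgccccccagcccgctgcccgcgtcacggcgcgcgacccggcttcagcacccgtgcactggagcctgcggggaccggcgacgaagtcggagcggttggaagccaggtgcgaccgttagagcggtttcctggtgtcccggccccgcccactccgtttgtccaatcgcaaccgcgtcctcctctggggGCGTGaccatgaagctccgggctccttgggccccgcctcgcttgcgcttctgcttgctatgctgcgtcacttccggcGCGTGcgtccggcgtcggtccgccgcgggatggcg
Psmd11: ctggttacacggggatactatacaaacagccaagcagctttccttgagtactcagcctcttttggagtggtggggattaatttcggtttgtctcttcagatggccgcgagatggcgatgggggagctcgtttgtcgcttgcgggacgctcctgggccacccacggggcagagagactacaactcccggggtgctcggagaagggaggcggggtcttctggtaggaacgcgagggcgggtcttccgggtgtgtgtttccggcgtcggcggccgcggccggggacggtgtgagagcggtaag
Bnip5: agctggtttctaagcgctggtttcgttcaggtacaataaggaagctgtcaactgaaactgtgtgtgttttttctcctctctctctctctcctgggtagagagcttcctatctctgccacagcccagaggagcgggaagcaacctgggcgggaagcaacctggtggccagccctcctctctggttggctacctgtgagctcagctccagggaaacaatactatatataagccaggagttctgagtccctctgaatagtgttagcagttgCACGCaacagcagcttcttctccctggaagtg
Abracl: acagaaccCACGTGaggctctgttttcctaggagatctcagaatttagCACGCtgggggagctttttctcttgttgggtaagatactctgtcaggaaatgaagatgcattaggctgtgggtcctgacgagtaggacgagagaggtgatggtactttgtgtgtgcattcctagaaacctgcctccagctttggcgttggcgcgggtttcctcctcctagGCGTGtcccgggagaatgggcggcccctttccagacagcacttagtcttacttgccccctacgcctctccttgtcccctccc

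The Diablo window held 2 matches, the Bnip5 window 1, the printed Abracl window 4 and the Psmd11 window 0, which says only that these letters are not in that window. The first pair of Abracl matches is the palindrome CACGTG, which reads ACGTG on both strands. Over all 32851 full-length windows in the table, 43.8% held ACGTG or GCGTG on either strand. The share was 38.1% of the 328 windows at loci of testis-library clones and 43.6% of the 94 windows at loci of clones that fell with CoCl2 in deleted cells. TGACGTCA, the full cAMP response element bound by CREB and by CREM, a regulator of genes of sperm formation, was in 2.44% of the 328 windows and in 1.79% of all windows. A match is a description of the letters and not of a bound site.

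Several properties of the arrays touch the results. The raw 75th percentile averaged 9.37 in floxed PBS, 9.27 in floxed CoCl2, 9.07 in deleted PBS and 8.17 in deleted CoCl2 arrays (log2). The arrays lay on 3 slides, with all floxed PBS arrays and floxed CoCl2 array 1 on slide 1, the other floxed CoCl2 arrays and deleted PBS arrays 1 and 2 on slide 2, and deleted PBS array 3 with all deleted CoCl2 arrays on slide 3. Deleted CoCl2 array 2 was scanned on another day. Signal of Pgk1 near the 3′ end minus that near the 5′ end, a sign of RNA quality, was 2.79 to 2.84 in floxed PBS, 2.70 to 2.75 in floxed CoCl2, 3.01 to 3.11 in deleted PBS and 2.46 to 2.82 in deleted CoCl2 arrays. The same difference for Gapdh was -2.33 to -2.30 in floxed PBS and -2.06 to -1.84 in floxed CoCl2 arrays. It was -2.35 to -2.18 in deleted PBS and -2.22 to -1.96 in deleted CoCl2 arrays, which overlapped. Pgk1 signal near the 3′ end was itself higher with CoCl2 in both genotypes. The part of slide, signal strength and RNA quality in the results below was not tested beyond the values given. A check of the 1130 clones against prepared lists of 28 smooth muscle, 95 germ cell and 16 Sertoli and Leydig cell genes, and of 10 endothelial, 11 fibroblast and 10 macrophage genes, found no linked clone, so the smooth muscle label could not be checked with these clones.

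Arrays also stood apart by clones at Y loci, although all samples are labelled male. The clone 4932431L22, linked to a Y locus that RefSeq types as a miscellaneous RNA, stood at -1.64, -1.65 and 0.31 on floxed PBS arrays 1 to 3 and at 0.14, -1.38 and 0.28 on floxed CoCl2 arrays. It was at 1.02 to 1.30 on deleted PBS and at 2.04, 1.65 and 2.28 on deleted CoCl2 arrays. Floxed PBS arrays 1 and 2 and floxed CoCl2 array 2 were thus the low ones, and all deleted arrays lay above all floxed ones. The clone 1700040F15, at a protein-coding Y locus, had the same 3 low arrays at -1.76, -1.91 and -1.46, against -0.62 to 0.11 on the other floxed arrays. The clone 4921509O09 matched no locus and is placed here because its values followed the same pattern, so it is no independent case. It was at -3.73, -3.46 and -3.26 on those 3 arrays and at -1.95 to -1.21 on the other floxed ones. A further clone at a Y locus, 1700020D14, was well above background on none of the 12 arrays. Genes of the mouse Y long arm occur in many near-identical copies, so these probes may measure several copies and are uncertain as to locus. What sets the 3 arrays apart was not tested, and other sequences were not sorted by it.

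**Figure D1:**
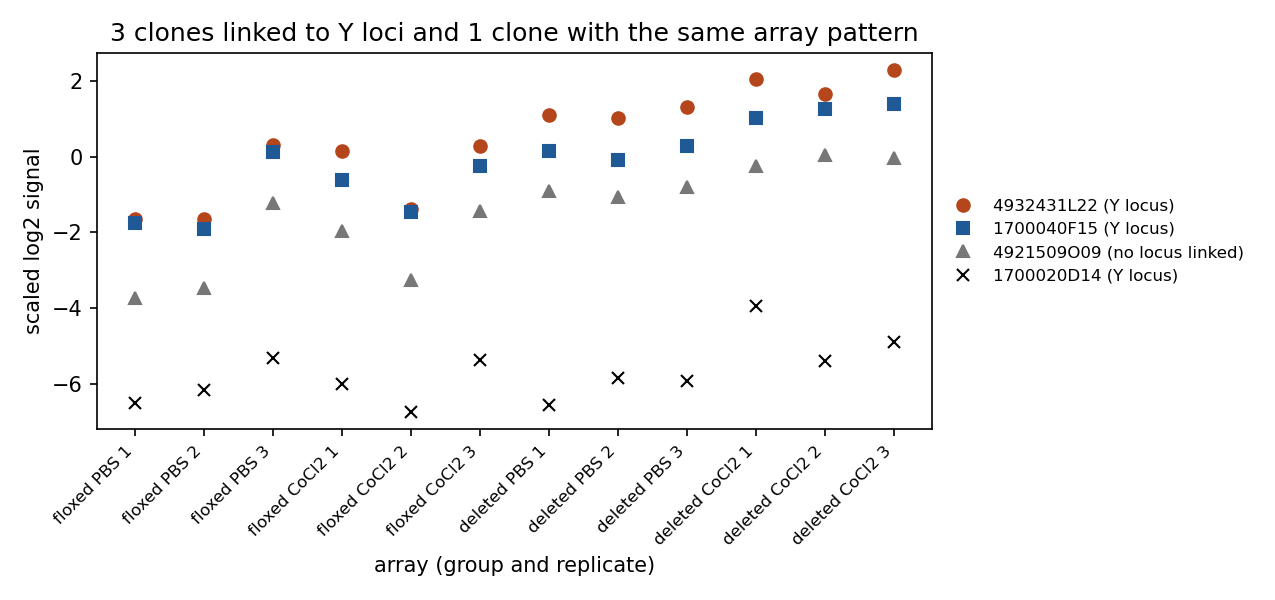
Scaled log2 signal (y axis) of 3 clones linked to Y loci and of clone 4921509O09, which matched no locus, on each of the 12 arrays (x axis, by group and replicate). Clone 4921509O09 is shown because its values followed the same pattern. The 3 detected clones are low together on floxed PBS arrays 1 and 2 and floxed CoCl2 array 2 and highest on the deleted CoCl2 arrays, while 1700020D14 stays at background levels.

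Testis-library clones were detected less widely than other RIKEN clones on every array. The share well above background was 59.2%, 57.4% and 55.0% on the floxed PBS arrays, or 57.2% ± 2.08 (SD, n = 3), against 73.4% ± 2.93 for the other clones. It was 51.3%, 72.4% and 64.8% on floxed CoCl2 arrays (62.8% ± 10.7, n = 3), where array 1 on slide 1 was the low one. Deleted PBS arrays gave 58.0%, 57.7% and 60.4% (58.7% ± 1.46). On deleted CoCl2 arrays the share was 34.3%, 40% and 30.9% (35.1% ± 4.60), and every one of these arrays lay below the other 9. The other RIKEN clones were also at their lowest there, with 57.9% ± 4.01.

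The gap between other and testis-library clones, in percentage points, was 16.2 ± 0.848 (SD, n = 3) in floxed PBS, 14.1 ± 3.14 in floxed CoCl2, 16.9 ± 0.494 in deleted PBS and 22.9 ± 1.00 in deleted CoCl2 arrays. The 3 deleted CoCl2 arrays had gaps of 21.8 to 23.8 points and the other 9 arrays 11.9 to 17.7 points, so the groups did not overlap. On all 12 arrays 310 testis-library clones were well above background (27.4%, against 49.8% of the other clones), and 275 were so on no array (24.3% against 12.8%). A further 232 clones (20.5%) were detected on every array of the other 3 groups and missed on at least 1 deleted CoCl2 array, and 113 of these (10.0%) were missed on all 3 of them. The same counts for the other RIKEN clones were 14.4% and 5.91%. With a laxer mark, a signal positive and above background, the share of testis-library clones was 77.7%, 82.0%, 78.9% and 59.1% in the 4 groups in the same order. The testis-library clones were shorter by the last number in their probe names, taken here as clone length, with a median of 1043 bases (quartiles 663 and 1787) against 2159 (1415 and 2974).

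**Figure D2:**
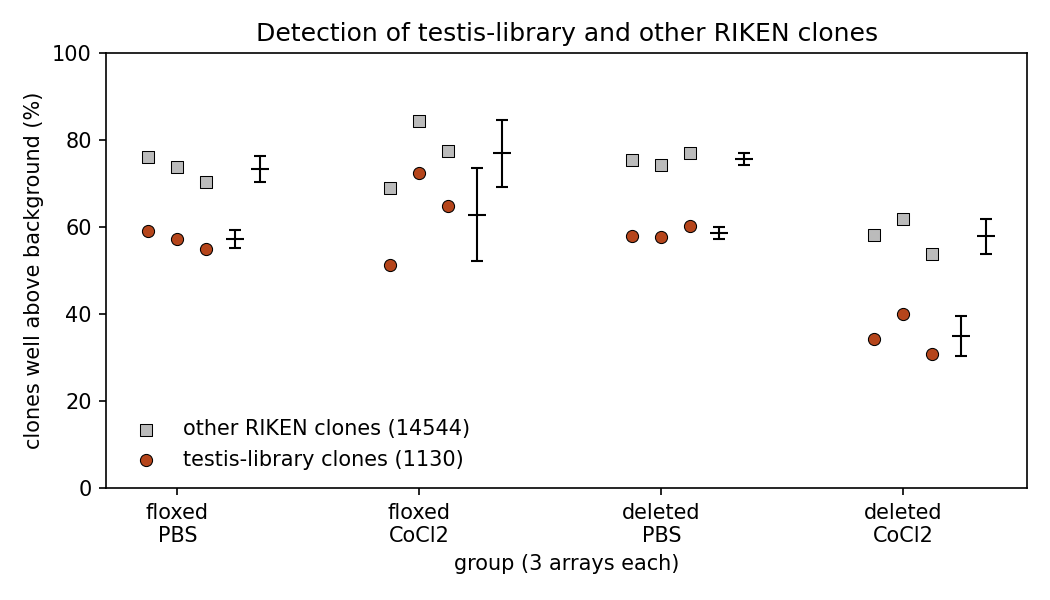
Share of clones well above background (y axis, percent) on each array of the 4 groups (x axis), for 1130 testis-library clones (circles) and 14544 other RIKEN clones (squares), with the mean ± SD of 3 arrays beside them. Testis-library clones lie below the other clones on every array, and the 3 deleted CoCl2 arrays are the lowest for both.

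A comparison within each array does not depend on how the arrays were scaled to each other. The median level of all 1130 testis-library clones lay below that of the other clones, with differences of -1.09 to -0.98 on floxed PBS, -1.17 to -0.91 on floxed CoCl2, -1.42 to -1.24 on deleted PBS and -2.06 to -1.63 on deleted CoCl2 arrays (log2). The mean differences were -1.04 ± 0.06 (SD, n = 3), -0.999 ± 0.15, -1.32 ± 0.09 and -1.84 ± 0.22. Both deleted groups thus lay apart from both floxed groups, and the deleted CoCl2 arrays were lowest. Among the 310 testis-library and 7240 other clones that were well above background on all 12 arrays, the difference was 0.21 ± 0.10 in floxed PBS, 0.19 ± 0.04 in floxed CoCl2, 0.08 ± 0.08 in deleted PBS and -0.29 ± 0.11 in deleted CoCl2 arrays. Here only the deleted CoCl2 arrays, at -0.42, -0.22 and -0.24, lay below all others. Probes of the 2 kinds of clone differ in sequence and length, so the size of a difference on one array has no meaning by itself, and only its change between arrays is compared.

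**Figure D3:**
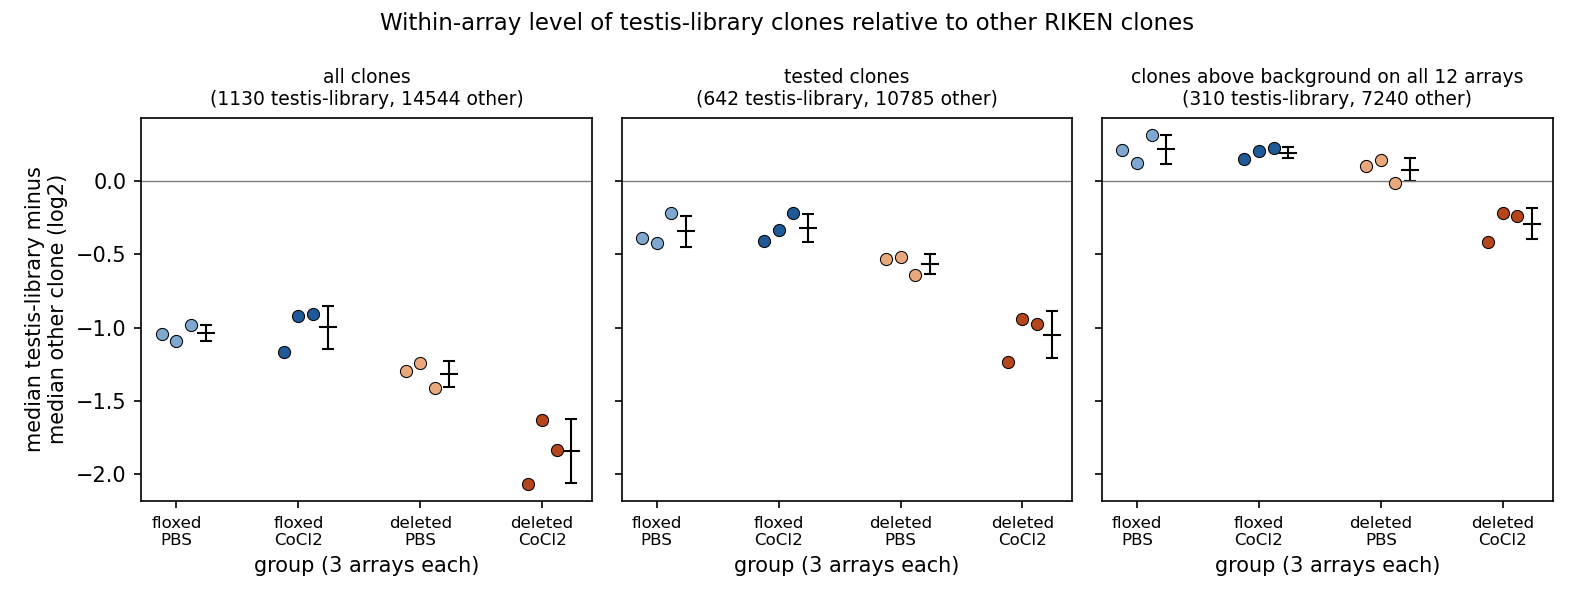
Median scaled log2 signal of testis-library clones minus that of other RIKEN clones on each array (y axis) in the 4 groups (x axis), with the mean ± SD of 3 arrays. The panels show all clones, tested clones, and clones well above background on all 12 arrays, and in each panel the deleted CoCl2 arrays are the lowest.

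A clone was tested where any group had all its arrays well above background, leaving 642 testis-library clones, 10785 other RIKEN clones and 70909 sequences in all. A clone can pass that filter through the group where it is high, so counts and medians over the 642 describe the clones tested and not all 1130. The threshold was a limma p below 0.05 after Benjamini-Hochberg adjustment over all 70909 sequences. SE is the moderated standard error of the fit, with n = 3 per group throughout.

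The first comparison asked what CoCl2 did to the clones in floxed cells. Few changed. Of 642 clones tested 10 rose and 6 fell (2.49%), against 4.94% of all sequences tested, of which 2.21% rose and 2.73% fell. The median log2 change was 0.02 for testis-library clones, 0.04 for other RIKEN clones and 0.01 for all sequences. All 4 clones called at loci with an established symbol rose: those at Prelid2, Psmd11, Fndc3a and Diablo. The count of 16 depended on which arrays entered. Leaving out floxed PBS array 2 or 3 gave 4 or 7 clones. The count was 10 or 5 without floxed CoCl2 array 2 or 3, and 10 without deleted PBS array 2, which enters only through the shared spread. With slide as a fixed block, 5 clones passed, and of the 4 above the Prelid2, Psmd11 and Diablo clones did not. Of the clones without an established symbol described next, 1700008N17, 4921510D07, 4930469K13 and 4930549L05 lost the call with that block, and 4930478M05 kept it.

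The clone at Prelid2 (1700003A01), a gene of the PRELI family of mitochondrial lipid-transfer proteins, stood at -3.72, -6.25 and -5.38 on floxed PBS arrays and at -1.27, -0.98 and -0.50 on floxed CoCl2 arrays. All 3 CoCl2 arrays lay above all PBS arrays, of which only 1 was well above background. The log2 change was 4.20 (SE 0.54, limma adjusted p = 0.00210). It kept 3.84 on slide 1 alone, where 1 CoCl2 array meets 3 PBS arrays. The clone at Psmd11 (1700089D09), which encodes a lid subunit of the proteasome, went from -2.95, -3.55 and -3.14 to -2.08, -2.38 and -1.57 (log2 change 1.20, SE 0.24, limma adjusted p = 0.0146). Its groups did not overlap, but the call was lost without floxed PBS array 2 or floxed CoCl2 array 3.

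The clone at Fndc3a (1700094E19), a gene needed for the adhesion of spermatids to Sertoli cells, went from -3.43, -3.25 and -3.31 with PBS to -1.77, -2.63 and -2.71 with CoCl2 (log2 change 0.96, SE 0.23, limma adjusted p = 0.0337). Floxed CoCl2 array 1 was the high one. The clone at Diablo (1700006L01), whose protein Smac leaves mitochondria to promote apoptosis, went from 1.47, 1.21 and 1.51 to 1.92, 2.09 and 2.09 (log2 change 0.64, SE 0.15, limma adjusted p = 0.0333). The groups did not overlap in either case, but these were the less stable of the 4 calls. That of the Fndc3a clone was lost without any 1 floxed PBS array or deleted PBS array 2. That of the Diablo clone was lost without any 1 floxed PBS array, floxed CoCl2 array 2 or 3, or deleted PBS array 1 or 2. The Psmd11, Fndc3a and Diablo calls in floxed cells were also lost when scaled to all 10, to 6 or to 4 E1A spike-in control probes. Their changes stayed upward there. Without a filter the Fndc3a and Diablo calls were lost too, and with normexp and quantile normalization that of Fndc3a.

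Among clones without an established symbol, 4930478M05 went from -4.21, -4.64 and -4.54 with PBS to -2.17, -1.92 and -1.91 with CoCl2 in floxed cells. This rise of 2.47 (SE 0.37, limma adjusted p = 0.00433) passed under every alternative in which it was tested, and it was detected on 1 PBS array and on all CoCl2 arrays. The clone 1700008N17 rose by 2.23 (SE 0.43, adjusted p = 0.0130), with CoCl2 arrays at -0.76, -0.74 and 1.13 above PBS arrays at -2.47 to -2.17, and lost the call without floxed PBS array 2. Of the falls, 4921510D07 went from -2.89, -1.77 and -1.10 to -4.52, -4.55 and -4.61 (log2 change -2.64, SE 0.38, limma adjusted p = 0.00314), and was detected on all PBS arrays and on 1 CoCl2 array. The clone 4930549L05 had a log2 change of -1.23 (SE 0.25, limma adjusted p = 0.0176), with CoCl2 arrays at -2.53 to -2.07 below PBS arrays at -1.51 to -0.71, and lost the call without floxed PBS array 2 or floxed CoCl2 array 3.

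The lncRNA clone 4930469K13, whose locus overlaps Kcnip1 and Lcp2, went from -2.43, -2.55 and -2.39 with PBS to -3.14, -4.43 and -4.20 with CoCl2 in floxed cells (log2 change -1.46, SE 0.29, limma adjusted p = 0.0165). Floxed CoCl2 array 1, the one on slide 1, lay nearest to the PBS arrays, and on slide 1 alone the change was -0.68. The call was lost without any 1 floxed PBS array and without floxed CoCl2 array 2 or 3.

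**Figure D4:**
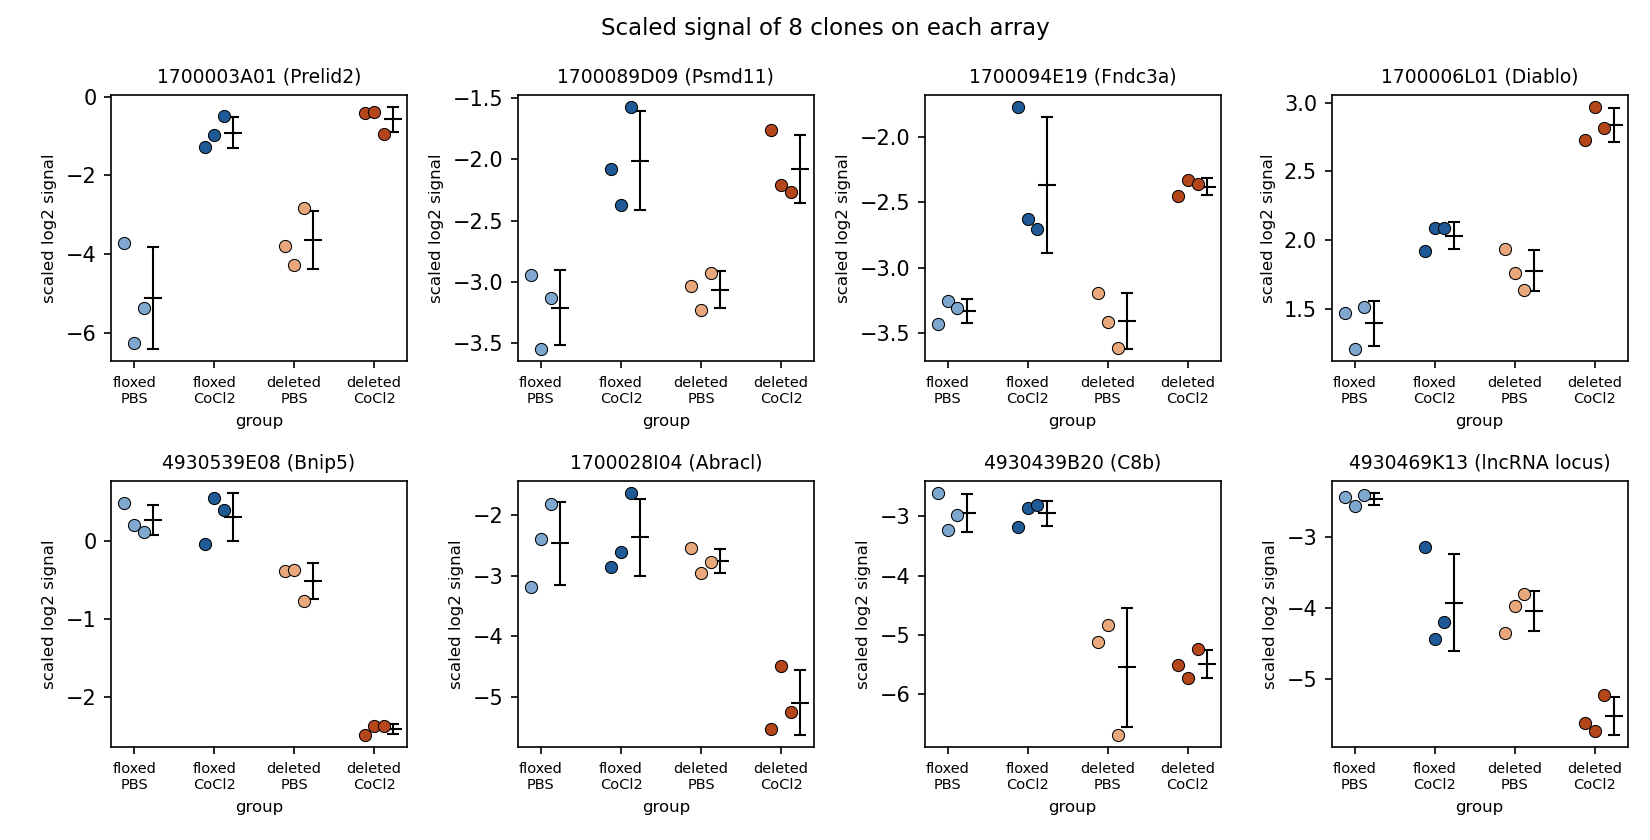
Scaled log2 signal (y axis) of 8 clones on each array of the 4 groups (x axis), with the mean ± SD of 3 arrays. The clones at Prelid2, Psmd11, Fndc3a and Diablo are higher with CoCl2 in both genotypes, those at Bnip5 and Abracl are low in deleted CoCl2 cells, and those at C8b and the lncRNA locus 4930469K13 are lower in deleted than in floxed PBS cells; when scaled to 4 E1A spike-in probes, the rises of the Psmd11, Fndc3a and Diablo clones in deleted cells turn to slightly below 0.

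The second comparison asked how the clones responded to CoCl2 in deleted cells. Falls were more frequent than rises: 290 of 642 clones fell (45.2%) and 64 rose (9.97%). Of all sequences tested 32.7% fell and 20.1% rose, and of the other RIKEN clones 25.8% fell and 21.8% rose. The share called in either direction, 55.1%, was near the 52.8% of all sequences. The median log2 change was -0.50 for testis-library clones, 0.02 for other RIKEN clones and -0.13 for all sequences. On slide 3 alone, with 3 CoCl2 arrays and 1 PBS array, the medians were -0.44 and -0.04. With slide as a fixed block 163 clones passed, 19 higher and 144 lower. Of the clones named below for this comparison with that block run, those at Prelid2, Psmd11, Fbxw8 and St8sia3os then lost the call. The 75th percentile and Pgk1 signs given above moved with this comparison, while the Gapdh difference overlapped between its groups.

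The median differed with the filter and with the signal of the clones. Over all 1130 clones without a filter the median log2 change in deleted cells was 0.06 against 0.16 for the other clones, with 270 rises and 295 falls called. Among the 310 clones detected on all 12 arrays it was 0.00, with 54 rises and 83 falls, against 0.26 for the other clones. Among the remaining 332 clones tested it was -1.11, with 10 rises and 207 falls; by construction that set holds the clones that fell to background. Calls among the other clones in these sets are not given here, so these counts are not read as particular to testis-library clones. The bins of mean signal below include the deleted CoCl2 arrays, so that a clone's own fall moves it toward a weaker bin. They hold only clones that passed the filter. In 4 bins of mean signal over the 12 arrays, from weak to strong, the medians were -0.89, -0.53, -0.17 and 0.02 for testis-library clones and -0.48, 0.04, 0.23 and 0.23 for other clones. In 4 bins of clone length, from short to long, they were -0.57, -0.56, -0.37 and -0.24 against -0.02, 0.02, 0.02 and 0.05. In each bin of either measure the testis-library clones thus lay below the others.

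The difference between the 2 kinds of clone in deleted cells, -0.51 in the medians of tested clones, is the same under any scaling by a constant per array, by construction. It was -0.39 with quantile-normalized signals, -0.24 with normexp before that step, -0.25 over clones detected on all arrays and -0.10 without a filter. The direction against the other clones thus held under these alternatives, while its size did not. Scaling to 4 E1A spike-in control probes, chosen after their values were seen, moved the median of all sequences to -1.21 and that of testis-library clones to -1.57.

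**Figure D5:**
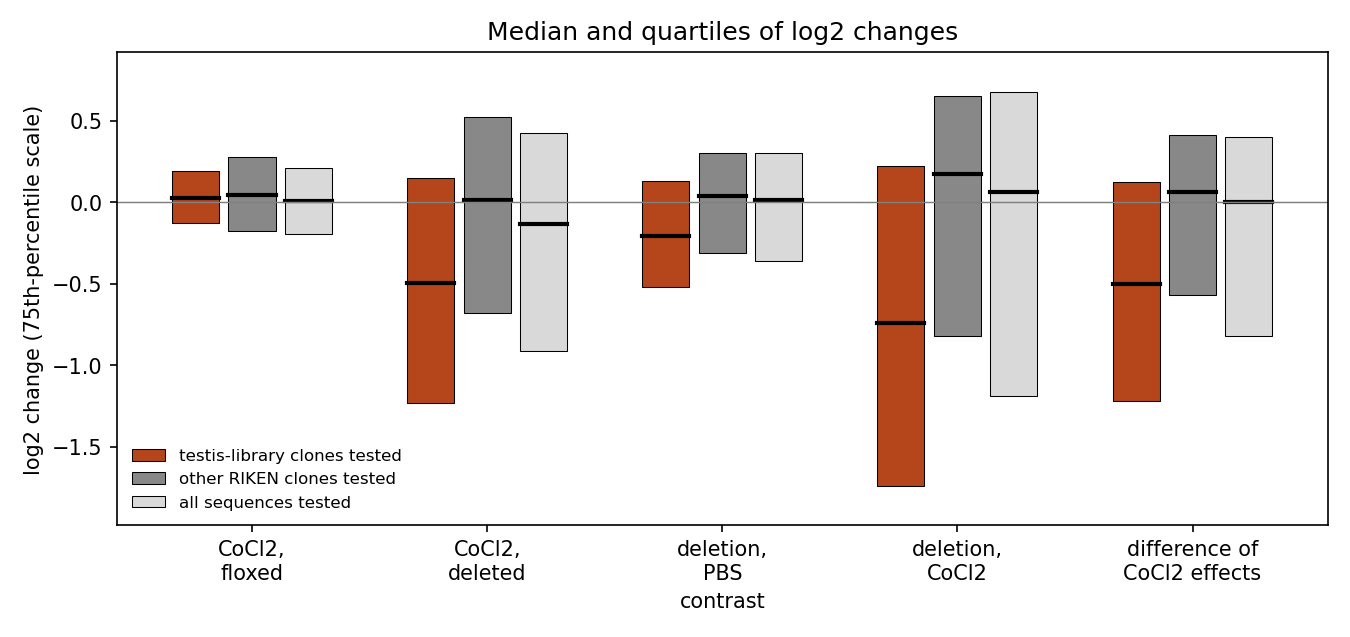
Median (line) and range from the lower to the upper quartile (bar) of log2 changes (y axis) in the 5 contrasts (x axis), for 642 testis-library clones, 10785 other RIKEN clones and all 70909 sequences tested. The medians of the testis-library clones are near 0 for CoCl2 in floxed cells and lie at -0.50 for CoCl2 in deleted cells and -0.74 for deletion under CoCl2.

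The class of locus went with the share of falls. Of 137 tested clones at lncRNA loci, 81 fell with CoCl2 in deleted cells (59.1%) and 3 rose; their median log2 change was -0.80. Of 69 tested clones at protein-coding loci 27 fell (39.1%) and 8 rose, with a median of -0.42. Of 427 tested clones with no single locus 179 fell (41.9%) and 51 rose, with a median of -0.44. The lncRNA clones were also the less detected, at 52.4% ± 1.41 (SD, n = 3) of 268 in floxed PBS and 27.9% ± 3.76 in deleted CoCl2 arrays, against 63.0% ± 1.91 and 40.1% ± 3.71 of the 109 clones at coding loci. The difference between classes was not tested. The library blocks were alike in direction, with medians from -0.74 for '4933' and -0.67 for '1700' to -0.33 for '4921'.

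The 4 named rises of floxed cells were also called in deleted cells. The Prelid2 clone (1700003A01) went from -3.80, -4.28 and -2.84 to -0.41, -0.38 and -0.94 (log2 change 3.06, SE 0.54, limma adjusted p = 0.000947). Deleted PBS array 3, on the slide of the CoCl2 arrays, was the highest PBS array, and on that slide the change was 2.26. The Diablo clone (1700006L01) went from 1.93, 1.76 and 1.64 to 2.73, 2.97 and 2.81 (1.06, SE 0.15, limma adjusted p = 0.000274). The Fndc3a clone (1700094E19) rose by 1.02 (SE 0.23, adjusted p = 0.00316), with CoCl2 arrays at -2.45 to -2.33 above PBS arrays at -3.62 to -3.19. The Psmd11 clone (1700089D09) rose by 0.99 (SE 0.24, adjusted p = 0.00474), with CoCl2 arrays at -2.26 to -1.76 above PBS arrays at -3.23 to -2.93. The rises of the Diablo, Fndc3a and Psmd11 clones turned to -0.02, -0.05 and -0.08 when scaled to 4 E1A control probes, while the Prelid2 clone kept 1.99.

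Outside these, 4930478M05 went from -3.59, -4.53 and -2.76 to 0.43, -0.38 and -0.39 in deleted cells. This was the largest fitted rise of any named clone there (log2 change 3.51, SE 0.37, limma adjusted p = 6.60e-05). It and the Prelid2 clone were well above background on only 2 deleted PBS and 1 floxed PBS arrays each. Their fitted rises in either genotype are thus no firm measure of size. The clone 1700008N17 rose by 2.33 (SE 0.43, adjusted p = 0.00112), with CoCl2 arrays at 0.84, 0.78 and 0.02 above PBS arrays at -2.06 to -1.60. Under the scaling to 4 E1A control probes 4930478M05 and 1700008N17 kept 2.44 and 1.26 and their calls. The clone at Fbxw8 (4930438M06), an F-box gene of a cullin ubiquitin ligase, rose by 0.63 (SE 0.23, adjusted p = 0.0352), which turned to -0.44 under that scaling and lost the call without any 1 deleted PBS array or deleted CoCl2 array 1 or 2. The 2 responses use no common arrays but the same estimate of spread. All 10 clones that rose in floxed cells rose in deleted cells, where they made up 15.6% of the 64 rises. Of the 6 that fell in floxed cells 4 also fell, 1.38% of the 290 falls. Over all sequences tested 20.1% rose and 32.7% fell in deleted cells. The overlap itself was not counted over all sequences, so it is not read as particular to these clones.

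At loci with an established symbol, the 5 falls with the largest fitted values in deleted cells were in clones at Abracl, St8sia3os, Il17b, Hspa12a and Bnip5. For clones undetected with CoCl2 the fitted value sets no order, and the bound of the Cdh24 clone (1700040A22), at least 2.21-fold lower, exceeded those of the Abracl, Il17b and Hspa12a clones. The Bnip5 clone (4930539E08), named for a protein that interacts with BCL-2, was at -0.39, -0.38 and -0.77 with PBS and at -2.49, -2.37 and -2.37 with CoCl2 (log2 change -1.90, SE 0.19, limma adjusted p = 4.81e-05). It was well above background on all 12 arrays, and in floxed cells the same exposure gave 0.04 (SE 0.19). The Abracl clone (1700028I04), of a small actin-associated protein, went from -2.55, -2.95 and -2.77 to -5.53, -4.50 and -5.25. None of these CoCl2 arrays was well above background, so it was at least 1.45-fold lower (limma adjusted p = 0.000684). Here and below, such a bound holds for the group means on the main scale. It does not cover the spread between arrays, the slide or other settings.

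The same bound applies to the next falls. The Il17b clone (1700006N07), of a cytokine of the interleukin 17 family, went from -2.73, -2.67 and -2.84 to -5.47, -4.74 and -4.39 and was at least 1.46-fold lower (limma adjusted p = 0.000102). The Hspa12a clone (1700063D12), of a distant member of the heat shock protein 70 family, went from -2.46, -2.20 and -3.11 to -5.43, -3.96 and -4.70 and was at least 1.63-fold lower (adjusted p = 0.000666). The clone of St8sia3os (1700091E21), a lncRNA overlapping the sialyltransferase gene St8sia3, was at -5.26, -2.59 and -3.57 with CoCl2 against -1.70 to -1.31 with PBS (log2 change -2.32, SE 0.50, adjusted p = 0.00282). It was detected on 1 of the CoCl2 arrays, and its CoCl2 arrays varied over a wider range than its PBS arrays.

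Among clones with no locus, 1700021H20 went from -0.78, -0.88 and -1.68 to -5.59, -3.48 and -4.71 and was at least 4.49-fold lower (limma adjusted p = 0.000122). The clone 4933429K06 went from -0.86, -0.82 and -2.32 to -4.15, -4.30 and -4.08 and was at least 3.88-fold lower (adjusted p = 0.000254). The clone 1700064N11 was detected on every array and went from 1.63, 1.98 and -0.31 to -2.17, -2.24 and -1.67 (log2 change -3.13, SE 0.46, adjusted p = 0.000321). In these 3 clones deleted PBS array 3, the one on slide 3, was the lowest PBS array. On slide 3 alone the 1700064N11 change was -1.72. That of 4933429K06 was -1.85 (log2), which is smaller than its bound.

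The third comparison, deleted against floxed cells under PBS, gave 7 lower clones (1.09%) and 0 higher ones. Of all sequences tested 1.48% were called, 0.533% higher and 0.946% lower. The split depended on the setting: it was 5 higher and 2 lower without floxed PBS array 3, 9 and 20 with quantile normalization, 1 and 19 with slide as a fixed block, and 3 and 5 with the replicate number as a block. At an unadjusted limma p below 0.05, 40 clones were higher and 141 lower, against 9596 and 10553 of all sequences. In either direction this was 181 of 642 clones and 20149 of 70909 sequences, a similar share. The median log2 difference was -0.21 for testis-library clones, 0.04 for other RIKEN clones and 0.01 for all sequences, and over all 1130 clones without a filter it was -0.25 against -0.04. The clone at C8b (4930439B20), of a chain of the complement membrane attack complex, stood at -2.61, -3.24 and -2.98 on floxed and at -5.12, -4.84 and -6.69 on deleted arrays. No deleted PBS array was well above background, so it was at least 2.66-fold lower (adjusted p = 0.0314). It was also undetected on the 3 deleted CoCl2 arrays, and at -3.19 to -2.81 on floxed CoCl2 arrays.

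The lncRNA clone 4930469K13, at -2.55 to -2.39 on floxed PBS arrays, was at -4.35, -3.97 and -3.80 on deleted PBS arrays (log2 difference -1.58, SE 0.29, limma adjusted p = 0.0454). The clone 1700024K11, with no locus, was at -0.29, -0.36 and -0.31 on floxed and at -1.67, -1.33 and -2.55 on deleted arrays (-1.53, SE 0.31, adjusted p = 0.0470). The others called were 1700092K14, 4930421H17, 1700101I19 and 4933436N17, with log2 differences from -1.35 to -0.89. The count of 7 was not stable. It was 0 without floxed PBS array 1 or 2, floxed CoCl2 array 2 or 3 or deleted PBS array 1 or 3, and 1 without deleted PBS array 2. Without floxed CoCl2 array 1 it was 41, and it was 30, 32 and 13 without deleted CoCl2 arrays 1, 2 and 3. No slide held both groups. With slide as a random block 0 clones passed in limma, and with it as a fixed block 4930469K13 lost the call.

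Under CoCl2, deleted and floxed cells differed in 437 of 642 clones (68.1%), near the 67.8% of all sequences. The split was 92 higher (14.3%) and 345 lower (53.7%), against 31.9% and 36% of all sequences and 29.4% and 29.7% of other RIKEN clones. The median log2 difference was -0.74 for testis-library clones, 0.18 for other RIKEN clones and 0.06 for all sequences. Among clones at lncRNA loci 100 of 137 were lower (73.0%) with a median of -1.19, and at protein-coding loci 30 of 69 (43.5%) with a median of -0.42. Among the 310 clones detected on all arrays 77 were higher and 102 lower, with a median of 0.01 against 0.41 for other clones so selected. Calls among those other clones are not given here. No slide held both groups, and with slide as a fixed block 185 clones passed, 8 higher and 177 lower; the clones at St8sia3os, Rpgrip1l, Pisd-ps3 and Timmdc1 then lost the call. Deletion under CoCl2 shares its deleted CoCl2 arrays with the second comparison, so the falls of the 2 are not independent.

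The clones named for lower levels follow. The Hspa12a clone (1700063D12) was at -1.98, -1.34 and -1.31 in floxed and undetected in deleted CoCl2 arrays, at least 3.35-fold lower (limma adjusted p = 2.59e-05). The clone at Slc6a21 (1700039E15), of the family of sodium-coupled transporters, was at -2.53, -1.16 and -1.18 in floxed CoCl2 arrays and at least 3.17-fold lower (adjusted p = 0.000191). The Abracl clone (1700028I04) was at least 1.89-fold lower. The Bnip5 clone (4930539E08), detected on all arrays, was at -0.04, 0.55 and 0.40 in floxed against -2.49 to -2.37 in deleted arrays (-2.71, SE 0.19, adjusted p = 3.25e-06). That of St8sia3os (1700091E21) had a log2 difference of -2.67 (SE 0.50). Without a locus, 4933424N20 was at least 6.06-fold and 1700021H20 at least 5.70-fold lower, and 1700064N11 had -3.92 (SE 0.46).

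The higher clones at named loci included mitochondrial ones, and the direction of those named here turned when scaled to 4 E1A control probes. Of 49 clone results run under each scaling, that one reversed 10 and ended the call of 9. Scaling to all 10 E1A control probes reversed 0 and ended 7 calls. Scaling to the 6 measured on all arrays reversed 0 and ended 12. The clone at Mtch2 (4930539J07), of a protein of the outer mitochondrial membrane, was at 1.00, 0.94 and 0.43 in deleted and at -0.15 to -0.08 in floxed CoCl2 arrays (log2 difference 0.91, SE 0.20, limma adjusted p = 0.00195), but at -0.32 when scaled to 4 E1A control probes. The Diablo clone (1700006L01) had 0.80 (SE 0.15, adjusted p = 0.000671), and -0.43 under that scaling. Clones at Rpgrip1l (1700047E16), of the transition zone of cilia, at the pseudogene Pisd-ps3 (4933439C20) and at Timmdc1 (4930455C21), of respiratory complex I assembly, had 0.77, 0.55 and 0.46, which turned to -0.46, -0.68 and -0.76. The Pisd-ps3 call was lost without floxed CoCl2 array 3, and the Timmdc1 call without floxed CoCl2 array 2 or 3 or deleted CoCl2 array 3. Both were also lost with quantile normalization, with or without normexp before it. Scaling to sequences above background on all 12 arrays ended both calls and that of the Rpgrip1l clone. Scaling to 6 E1A control probes did the same and also ended the Mtch2 call.

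The 3 largest differences upward were the clones that set single arrays apart above. Deleted minus floxed under CoCl2 was 2.31 for 4932431L22 (SE 0.52, limma adjusted p = 0.00235), 2.13 for 4921509O09 (SE 0.59, adjusted p = 0.00717) and 1.99 for 1700040F15 (SE 0.46, adjusted p = 0.00274). The deleted CoCl2 arrays lay above the floxed CoCl2 arrays in each case. The floxed arrays of these clones differed among themselves by over 1 log2 unit, and all 3 lost the call with slide as a fixed block and when scaled to 4 E1A control probes.

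The CoCl2 effects of the genotypes differed by the interaction test in 179 clones (27.9%), against 20.5% of all sequences and 14.2% of other RIKEN clones. In 175 of them the change was lower in deleted cells (27.3%, against 17.7% of all sequences), and in 4 it was higher (0.623%, against 2.84%). With slide as a fixed block 3 clones passed, all lower, and as a random block 90. Of the 6 clones described next, only 4921525O09 kept the call with the fixed block (limma adjusted p = 0.0325); 1700021H20 had 0.198 and 4933424N20 0.134. The clone 1700021H20 changed by 0.05 in floxed and by -3.48 in deleted cells (difference -3.53, SE 0.59, limma adjusted p = 0.00384). The clone 4933424N20 changed by 0.36 and by -2.60 (difference -2.96, SE 0.45, adjusted p = 0.00261). The clone 4921525O09, a lncRNA next to the stress gene Gadd45g, changed by 0.11 and by -2.81 (difference -2.92, SE 0.28, adjusted p = 0.000517), from -2.65, -2.46 and -3.11 to -5.66, -5.75 and -5.24. As the deleted CoCl2 arrays did not detect these 3 clones, their fitted falls are no measure of size.

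Upward, 4931406A15 was at 0.70, 0.73 and 0.65 on deleted CoCl2 arrays and between -1.21 and -0.18 on the other 9 (difference of effects 1.15, SE 0.29, limma adjusted p = 0.0187). The differences of 4930534N13 (0.97) and 4930404L07 (0.91) had adjusted p of 0.0399 and 0.0363. Scaled to 4 E1A control probes, the 3 stood at 0.22, 0.04 and -0.02 without a call. All 3 lost the call when floxed CoCl2 array 2 or 3, or deleted PBS array 1 or 2, was left out. Those of 4930534N13 and 4930404L07 were also lost without any 1 floxed PBS array or deleted CoCl2 array 1. The count of 179 was 103 without floxed PBS array 2, 90 or 100 without floxed CoCl2 array 2 or 3, and 94 or 95 without deleted PBS array 1 or 2.

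The prepared lists covered few of the clones. Of 110 cell cycle genes only Kif2c, of a mitotic kinesin, and of 117 genes of the axoneme only Hydin, of the central apparatus of motile cilia, had a linked clone, and none of 69 HIF targets or 40 metal and oxidative stress genes did. The Kif2c clone (4930402F02) went from -0.98, -0.95 and -1.21 to -2.00, -1.98 and -1.69 with CoCl2 in deleted cells (log2 change -0.84, SE 0.20, limma adjusted p = 0.00486). In floxed cells it changed by -0.29 (adjusted p = 0.580). Both Hydin clones were measured: 1700034M11 was detected on all 12 arrays with means from 2.88 to 3.41, and 4930545D19 on 7 arrays with means from -4.26 to -3.68. Neither passed in any contrast.

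Clones at loci with an established symbol were also grouped by role, after their names were seen. For comparison, 72.2% of all sequences were detected in floxed PBS and 54.7% in deleted CoCl2 arrays, and with CoCl2 in deleted cells 32.7% of all sequences tested fell and 20.1% rose. The groups are too small to be read against these shares. Of 17 clones at loci of germline, sperm or cilium genes 6 could be tested, and 37.3% were detected in floxed PBS against 19.6% in deleted CoCl2 arrays. Those at Adcy10, Phf7, Spanxn4, Tex13b, Tex55, Znrf4 and Cfap97d2 were detected on none of the 12 arrays. The clone at Cfap77 (1700101E01), of a flagellar protein, fell from a mean of -3.20 to levels not well above background with CoCl2 in deleted cells, at least 1.06-fold (limma adjusted p = 0.000692), the only one of the 6 to pass there. The clone at Cntd1 (4921513J16), a gene of meiotic crossing over, was detected on all 12 arrays with group means from -1.84 to -1.49 and was not called with CoCl2 in either genotype.

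Of 7 clones at loci of mitochondrial proteins 6 could be tested, and 85.7% were detected in floxed PBS arrays. The Prelid2 clone was not put in this group. In deleted cells CoCl2 raised those at Diablo and Mtch2 (0.61, limma adjusted p = 0.0227). The Mtch2 groups overlapped, with CoCl2 array 3 at 0.43 and PBS array 2 at 0.45. CoCl2 lowered the clone at Sdhaf4 (1700001E18), of succinate dehydrogenase assembly, to background, at least 1.11-fold (adjusted p = 0.00216). Under CoCl2 the Sdhaf4 clone was also lower in deleted than in floxed cells, at least 1.41-fold (limma adjusted p = 0.000253). Of 12 at loci of protein turnover or RNA processing 9 could be tested: besides Psmd11 and Fbxw8, that at Efl1 (4932434J20), of ribosome maturation, rose by 0.59 (adjusted p = 0.0144), and those at Azin1 (1700085L02), of polyamine control, and Rbbp6 (4933422O15), a ubiquitin ligase gene, fell by 1.08 and 0.71 on the log2 scale. Of 11 at loci of neuronal or adhesion proteins 7 could be tested and 3 fell: those at Cdh24 (1700040A22), a cadherin, Sptbn4 (1700022P15), a spectrin, and Kcnj9 (1700085N21), a potassium channel subunit. The Cdh24 clone was detected on none of the deleted CoCl2 arrays and the other pair on 1 each, so their fitted changes are no measure of size. The Kcnj9 groups overlapped, with CoCl2 arrays at -4.65, -2.89 and -4.19 against PBS arrays at -2.97 to -2.77. Detection in that group was 66.7% in floxed PBS and 24.2% in deleted CoCl2 arrays. The rises in these groups share the dependence on scaling given above.

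The 10 clones with the highest scaled signals, which mark strong hybridisation and not rank in abundance, had little response to CoCl2 in floxed cells. The brightest, 4930441F12, was at 7.44, 7.43 and 7.39 with PBS and at 7.69, 7.04 and 7.15 with CoCl2 there. On deleted CoCl2 arrays it was at 8.53, 7.97 and 8.18, above all 3 deleted PBS arrays at 7.32 to 7.66 (log2 change 0.72, SE 0.20, limma adjusted p = 0.0107). Of these 10, the clones 4930417B17, 1700003N22 (at the pseudogene Gm6194), 4930586H24 and 4930403L07 also rose in deleted cells, by 0.60 to 0.90, and 4930557B21 had -0.49 (adjusted p = 0.0457). The scaling to 4 E1A control probes moved the median of all sequences in deleted cells from -0.13 to -1.21, a shift larger than each of these rises. The other 4, 4930550C20, 4930546B01, 1700105P06 and 4930402C01, were not called in any contrast.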

How the data were processed

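The authors deposited each array's scanner output, in which every spot has a linear intensity. Feature Extraction 11.5.1.1 produced it per the file headers, while the submitters' processing notes name 9.1. The deposited value table holds log2 values that equal the scanner values minus a constant per array and served as an alternative. Processed signals, already background-corrected, were averaged as log2 over the spots of each of 97836 probes, without joining probes of a gene, and scaled by subtracting each array's 75th percentile. Detection was the scanner mark for signals well above background, on most spots of a probe. Tests used limma 3.58.1 in R 4.3.3 (lmFit, eBayes, 1 mean per group, 12 arrays, Benjamini-Hochberg over 70909 probes), tested on simulated data first. For a probe undetected in a group, folds are bounds: the bright mean over the mean, per array, of the higher of its own signal and the lowest signal well above background. They are bounds against the background limit on the main scale only, and other settings gave some smaller fitted changes.

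Named clones were, per contrast, those past the threshold with non-overlapping groups and full detection in the brighter group: the 5 largest changes each way at established symbols and the 3 largest of all (for the difference of effects, 3 each way without the overlap condition), the 10 brightest, and clones on the prepared lists; other names, and the role groups, the 4-probe E1A scaling and the replicate block within genotype, were chosen after seeing the data. The clones and lists were chosen with earlier results of these data known. Normexp used the median signal column, since a mean signal column was not analysed here. Same-numbered floxed arrays deviated together (correlations 0.396 to 0.452) and deleted ones did not all do so (-0.144 to 0.285). The labels state no pairing, so the numbers may pair floxed arrays, but this was not established. The main test used no pairing. RefSeq symbols, neighbours and promoters are of GRCm38.p6; the array design names mm9, and no array coordinates were used.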

Additional observations from a re-analysis of the deposited data

Results flagged for a closer look

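The CoCl2 effects of the genotypes differed by the interaction test in 179 of the testis-library clones (limma, adjusted over all sequences tested). Among them, 15 clones named by the rule given above are listed first. The difference is deleted minus floxed, log2. At loci with an established symbol it was -2.84 for the St8sia3os clone (1700091E21), -2.43 for the Abracl clone (1700028I04), -2.31 for the Slc6a21 clone (1700039E15), -2.10 for the Il17b clone (1700006N07), -1.94 for the Bnip5 clone (4930539E08) and -1.93 for the Hspa12a clone (1700063D12). For clones with no established symbol it was -3.53 for 1700021H20, -2.96 for 4933424N20, -2.92 for 4921525O09, -2.76 for 1700064N11, -2.48 for 4933429K06 and -1.41 for 1700024K11. It was upward in 3 clones, at 1.15 for 4931406A15, 0.97 for 4930534N13 and 0.91 for 4930404L07. Of the 12 downward clones, 8 were well above background on no deleted CoCl2 array, so the differences of these 8 are no measure of size. The St8sia3os clone and 1700024K11 were so on 1 of these arrays each, so theirs are no measure of size either. With slide as a fixed block 3 testis-library clones passed in place of 179. That block was run on 6 of these 15 clones: 1700021H20, 4933424N20 and the 3 upward clones lost the call, and 4921525O09 kept it. Clones named outside the rule also passed. The difference was -0.98 for the Azin1, -1.84 for the Cfap77, -1.85 for the Cdh24, -1.54 for the Sptbn4 and -1.09 for the Sdhaf4 clone. The Azin1 clone was well above background on all 12 arrays. The Cfap77, Cdh24 and Sdhaf4 clones were so on no deleted CoCl2 array and the Sptbn4 clone on 1, so their differences are no measure of size.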

How the results depend on the processing

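Settings are compared by the number of clones called and the median log2 change, each in the order of the report's comparisons; where a value changed with a setting, the cause was not tested. With quantile normalization the median for CoCl2 in deleted cells was -0.2006, 29 clones differed under PBS, the median for deletion under CoCl2 was -0.3887, and the difference of effects had 70 calls and a median of -0.2018. With normexp and quantile normalization these were -0.1034, 48 (median -0.07503), -0.1914, and 51 with -0.08435. Scaled to sequences above background on all 12 arrays they were -0.6729, 45 (-0.3426), -1.057 and a median of -0.6889. Scaled to all 10 E1A control probes, 7 clones were called for CoCl2 in floxed cells (median -0.07752) and 1 under PBS (0.02391), with medians of -0.3279 for deletion under CoCl2 and -0.3263 for the difference. With the 6 E1A probes measured on all arrays there were 9 calls in floxed cells (-0.1357), a median of -0.8491 in deleted cells, 49 calls under PBS (-0.3037), and medians of -1.028 and -0.6992. With 4 E1A probes there were 5 calls (-0.1217), -1.572, 59 calls (-0.5087), -1.97, and 383 calls with -1.436 for the difference. The same scaling turned the changes in deleted cells of the clones 1700006L01 to -0.0163, 1700094E19 to -0.0503, 1700089D09 to -0.0847 and 4930438M06 to -0.4432. It turned deletion under CoCl2 for 4930539J07 to -0.3216, 1700006L01 to -0.4262, 1700047E16 to -0.4632, 4933439C20 to -0.6765 and 4930455C21 to -0.7648, and the difference of 4930404L07 to -0.0219. Without a filter 565 clones were called in deleted cells (median 0.06045), 656 for deletion under CoCl2 (-0.1717) and 294 for the difference (-0.05017). Over clones above background on all arrays these were 139 (0.003257), 191 (0.01269) and 43 (-0.01705), with 16 under PBS (0.003712). With slide as a fixed block the calls were 5, 163, 20, 185 and 3, and as a random block 0 under PBS and 90 for the difference. Without the block '1700' there were 8 calls in floxed cells and 4 under PBS. The laxer detection mark gave shares of 77.67%, 82.04%, 78.88% and 59.09%.

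Leaving out each array in turn gave 4 to 19 calls in floxed cells, 286 to 367 in deleted cells, 0 to 41 under PBS, 394 to 448 for deletion under CoCl2 (median -0.8554 to -0.6658) and 90 to 236 for the difference; the report names the arrays behind the changes of count. The replicate number was also used as a block, although the labels state no pairing. Across all groups 13, 367, 8, 444 and 176 clones were then called, in the order of the comparisons. Within genotype 19, 382 and 175 were called for the 3 comparisons of CoCl2. The block ended the calls of the Diablo clone in floxed cells and of 4930534N13 for the difference, and within genotype also that of the Fndc3a clone in floxed cells, and changed none of the other calls among the 49 results (30 within genotype) for which it was run; other clones named in the report were not run. Arrays hold signals and not counts, so precision is limited by the number of arrays and, for clones not well above background, by the background.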
